A study of Ovis aries with 36 samples.

Results

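The comparison described here sets the motor cortex of 5 lambs kept on EXTEND (lambs A to E, called supported) against the motor cortex of 2 lambs examined straight after preterm delivery (lambs H and I, called preterm). It was defined by the labels alone and takes 7 of the 36 RNA sequencing libraries of the series, which covers 4 brain regions of 9 lambs. The supported lambs were also born preterm. They were cannulated at once, carried on the extrauterine system and examined near the age of another arm, called late preterm (lambs F and G), whose delivery was at 127 days and whose tissue was taken without support. All animals are sheep (Ovis aries), and the labels name neither the breed, nor the age of the preterm lambs, nor the length of support. Lambs A, B, D, E and H were female and lambs C, I, F and G were male.

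EXTEND connects a preterm lamb through cannulas to an extrauterine support system, so that a fetus can go on growing after it has left the uterus. The motor cortex is the part of the cerebral cortex that sends commands for voluntary movement to the brain stem and spinal cord. In fetal sheep the last part of gestation is a time of cortical folding, of growth of dendrites and synapses, and of the start of myelination, and bulk RNA from the region moves with all of them. In bulk tissue, fewer cells of a type and less RNA per cell cannot be told apart. Time, birth and support all separate these arms, so that what each contributed cannot be told apart either.

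Genes are given by their Ensembl identifiers, because the reference table used here paired none of them with a symbol. What the genes encode, where they lie and which cell types express them is therefore not given. The labelled region was checked by profile instead of by marker genes. Each of the 9 motor cortex libraries correlated best, across genes, with the mean motor cortex profile of the other 8 lambs, at r of 0.40 (lamb I) to 0.71 (lamb D). This r also took negative values, such as -0.51 between the cerebellum library of lamb F and its next-best region. It is therefore not a plain correlation of expression levels. Total counts were 11539513 to 18153142 in the supported libraries and 10150099 and 11964697 in the preterm libraries. Lamb A, at the lowest of the supported totals, lay within the range of the preterm lambs, while lambs B to G lay at 13765297 or more. The 10 most abundant genes took 3.46% to 3.92% of the counts in the supported libraries and 3.48% and 3.50% in the preterm ones. Between 18758 and 19409 genes had at least 1 count in a library.

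Before any gene was tested, the whole profiles were compared. The distance between 2 libraries was taken as the SD, over 16173 genes, of their differences in log2 CPM (CPM is a gene's count scaled to a common library size, here with edgeR's TMM method). The 10 pairs of supported lambs lay 0.45 to 0.59 apart, with a median of 0.55. The 2 preterm lambs lay 0.62 apart. The 10 pairs of a supported and a preterm lamb lay 0.61 to 0.77 apart, with a median of 0.71. The mean distance between arms exceeded the mean within arms by 0.16, more than under any of the other assignments of the 7 libraries to groups of 5 and 2 (exact permutation test over 21 assignments, one-sided p = 0.0476, the smallest this design allows). Lambs E and H, at 0.61, were the closest pair across the arms and lay no farther apart than the preterm lambs did from each other. Lamb A, which was sequenced as deeply as the preterm lambs, lay 0.70 from lamb H and 0.71 from lamb I, within the range of the other supported lambs.

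**Figure D1:**
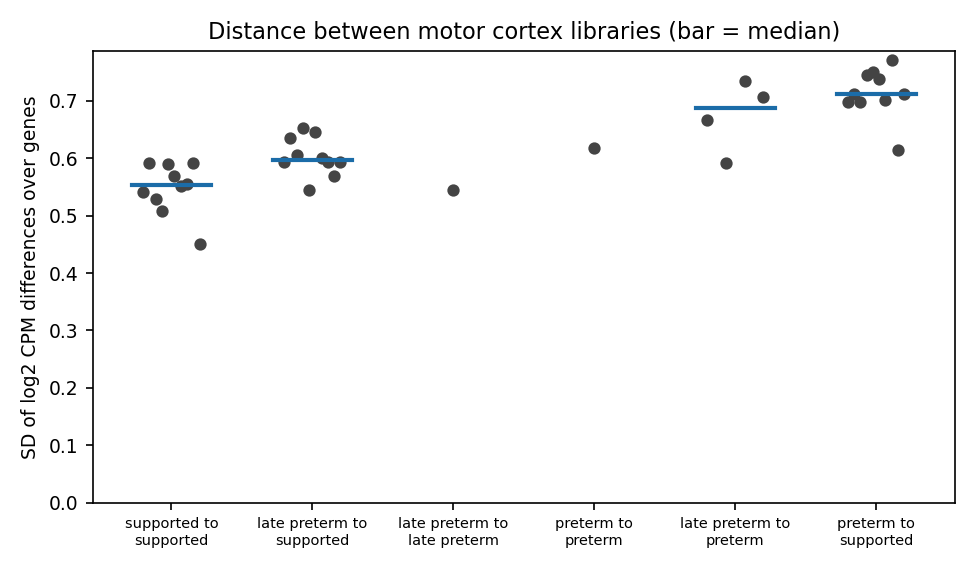
Distance between motor cortex libraries, as the SD over 16173 genes of the difference in log2 CPM (y axis), for each pair of lambs grouped by the arms of the pair (x axis); points are pairs and bars are medians where there is more than 1 pair. Preterm to supported pairs have the highest median, 0.71, against 0.55 for supported to supported pairs, and the pair of preterm lambs lies between them at 0.62.

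Gene by gene, 1980 of 16173 genes (12.2%) passed the test of supported against preterm lambs at an adjusted p under 0.05 (edgeR quasi-likelihood F-test with Benjamini-Hochberg adjustment, n = 5 and 2). Of these 1044 rose (6.46% of the tested genes) and 936 fell (5.79%). The count was 1182 without preterm lamb H (640 higher, 542 lower) and 607 without preterm lamb I (304 and 303). It was 171 (140 and 31) when depth was modelled, which means adding a term for lambs A, H and I, the libraries of fewest counts, against the other 6. In that fit lamb A alone stands for the supported lambs against lambs H and I. The part of lost precision in the smaller count was not tested. The tested genes as a whole were centred, with a median log2 fold change of 0.00 and 49.7% of them above 0. Most of the changes were modest in size. Among the genes that rose, 355 were under 1.5-fold, 380 were 1.5- to 2-fold, 249 were 2- to 4-fold and 60 were over 4-fold. Among those that fell, the same classes held 293, 379, 222 and 42 genes. The middle of each group was similar, with a median log2 fold change of 0.73 for the genes that rose (quartiles 0.52 and 1.10) and an absolute median of 0.74 for the genes that fell (quartiles 0.54 and 1.05). The upper end was also close, since 1 in 10 of the risers exceeded a log2 fold change of 1.63 and 1 in 10 of the fallers exceeded 1.64 in size.

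The counts of risers and fallers parted when the test was asked for size, although the median sizes above were similar. Against a null hypothesis of at most a 1.5-fold change (edgeR glmTreat, adjusted p under 0.05), 182 genes (1.13%) passed, 124 that rose and 58 that fell. The count was 108 without lamb A (83 higher, 25 lower), 63 without preterm lamb H (45 and 18), 46 without preterm lamb I (27 and 19) and 22 (19 and 3) when depth was modelled, with more risers than fallers in each of these settings. At a stricter adjusted p under 0.01 the plain test called 654 genes, 383 higher and 271 lower. The 1044 risers also had a higher median level than the 936 fallers (log2 CPM of 6.03 against 4.88). Their median standard error (SE) was 0.146, against 0.158 in the fallers. The part of level and precision in these counts was not tested.

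**Figure D2:**
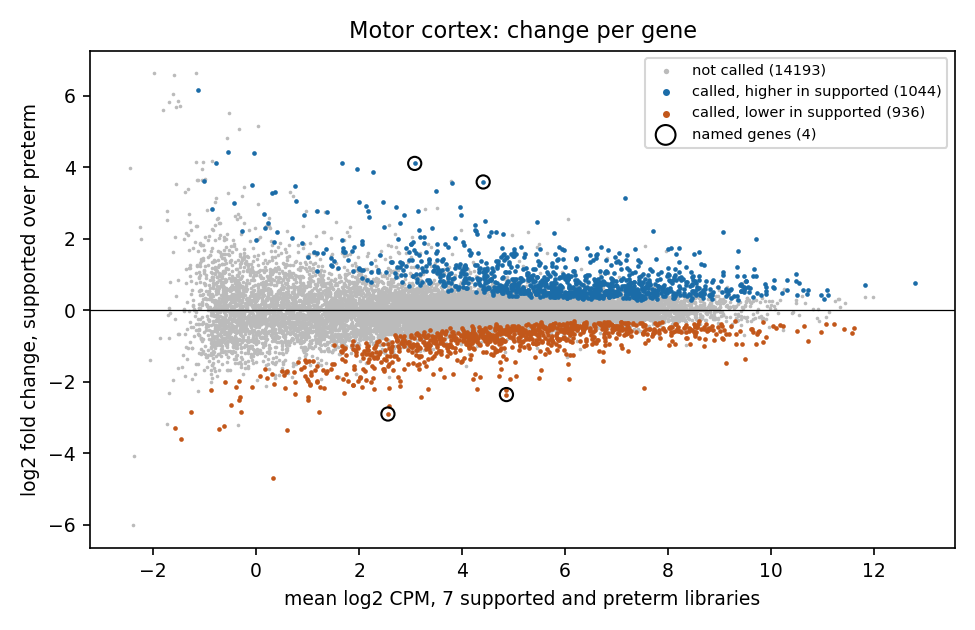
Log2 fold change of supported over preterm lambs (y axis) against mean log2 CPM over the 7 libraries (x axis) for each tested gene of the motor cortex. Blue points are the 1044 genes called higher, orange points the 936 called lower, grey points the genes not called, and circles mark the 4 genes described by name; called genes reach smaller fold changes toward the right, where levels are high.

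The breadth of the change was also read from the intervals of the fold changes. For 10772 genes (66.6%) the 95% interval, which is not adjusted for the number of genes, lay inside a 2-fold change in either direction. These genes included 862 of the 1980 called ones, whose change was therefore both detected and bounded under 2-fold. For 6079 genes (37.6%) the interval lay inside 1.5-fold, and 5471 of these intervals included no change. At the other end, 183 genes (1.13%) had an interval wholly beyond 2-fold, 113 of them higher and 70 lower. Of these 183 genes, 174 were called. A further 824 genes (5.09%) had intervals so wide that they reached past 2-fold both up and down, and for these the data do not bound the change.

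Without any model, 2682 genes (16.6%) had all 5 supported libraries above both preterm libraries and 2583 (16%) had all 5 below both. The 2 directions were thus nearly even by this count as well. Of the called genes, 1043 of the 1044 that rose and 927 of the 936 that fell had no overlap between the arms, which their small p-values largely require. The spread among lambs in these sets is a description, since the test that chose them favours a small spread beside the change. The median SD of log2 CPM among the 5 supported lambs was 0.15 in the genes that rose and 0.18 in the genes that fell, against 0.19 over all tested genes. The preterm lambs H and I differed by a median of 0.21, 0.27 and 0.25 in the same sets.

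Direction differed by expression level. The tested genes were ranked by mean log2 CPM over the 7 supported and preterm libraries and divided into 5 equal classes. Their median levels were 1.33, 8.02, 22, 48.7 and 141 CPM. As 5 of the 7 libraries are supported, the ranking itself moves risers toward higher classes and fallers toward lower ones. The part of this in the values below was not tested. The share of genes called was 3.59% in the lowest class, 10.2%, 11.9% and 12.7% in the next classes, and 22.8% in the highest. Of the called genes, 37.1%, 35.6%, 46.4%, 54.1% and 65.4% were higher in the supported lambs, in the same order. The lowest class held 43 risers and 73 fallers, and the highest 482 risers and 255 fallers. The median log2 fold change of all genes of a class, called or not, went from -0.05 and -0.07 in the lowest classes to 0.02 and 0.05 in the highest. The precision differed as well, with a median SE of 0.53 in the lowest class and 0.11 in the highest, and the share of genes bounded under 2-fold was 7.94% and 90.8%. Without preterm lamb I the shares of risers were 44.4%, 42.9%, 38.9%, 44.2% and 60.8%, with 18 calls in the lowest class. When depth was modelled they were 75% and 87% in the lowest 2 classes, 70.4% and 75.7% in the next and 87.5% in the highest, over 4, 23, 27, 37 and 80 calls. The order of these shares was kept in neither setting. The median log2 fold changes of all genes of a class were -0.11, -0.10, -0.03, 0.01 and 0.05 when depth was modelled. Their order was that of the main fit except that the lowest 2 classes exchanged places. Without lamb I the medians were 0.03, -0.03, 0.00, 0.03 and 0.02.

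**Figure D3:**
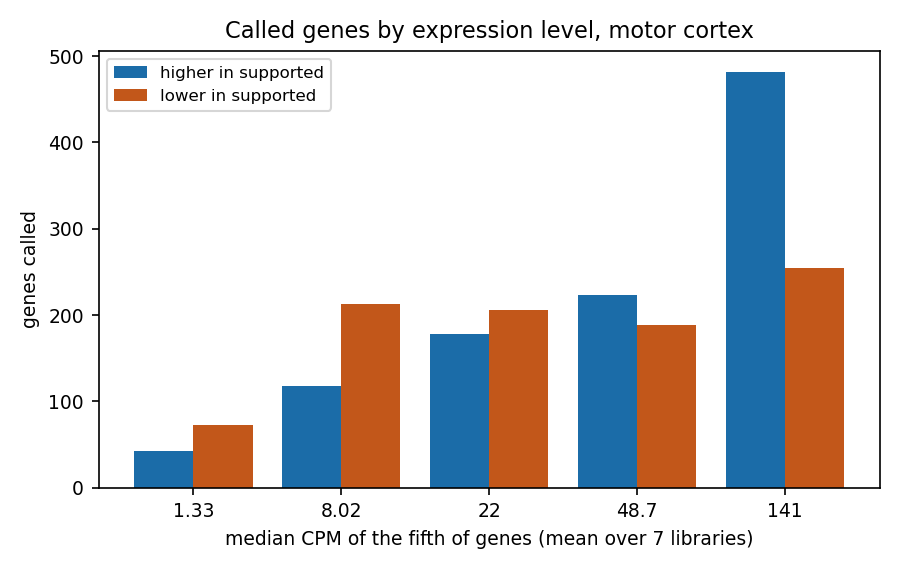
Number of called genes (y axis) in 5 equal classes of tested genes by mean level (x axis, median CPM of the class), for genes higher (blue) and lower (orange) in the supported lambs. Fallers outnumber risers at 73 to 43 in the lowest class, and risers outnumber fallers at 482 to 255 in the highest.

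The weight of the called genes was read from their share of all counts. Summed over the 1044 genes that rose, the share of a library's counts was 18.4% in lamb A, 18% in lamb B, 18.5% in lamb C, 19.7% in lamb D and 18.6% in lamb E, against 12.3% in lamb H and 11.6% in lamb I. Summed over the 936 genes that fell, it was 8.87%, 9.30%, 8.68%, 8.32% and 8.98% in lambs A to E, against 13.8% and 14.5% in lambs H and I. These shares describe genes chosen on the same libraries. Among the 100 most abundant genes, all at 811 CPM or more, 51 were called, 30 higher and 21 lower, and 3 of these reached a 2-fold change. The share called was 12.2% over all tested genes and 22.8% in the highest class of expression level, where the median SE was smallest. The median absolute log2 fold change over those 100 was 0.41, against 0.27 over all tested genes.

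Genes detected in a single arm were few and weak. Of the 27054 genes in the deposited table, 59 had at least 1 count in every supported library and 0 in both preterm libraries. Their mean was at most 9.4 counts in the supported libraries. In 26 genes both preterm libraries had at least 1 count and every supported library had 0, with a mean of at most 2 counts. The 59 and the 26 are not on 1 footing, since 0 counts were asked of 2 libraries of low depth in the former and of 5 libraries in the latter. A count of 0 allows up to 3 counts in a library, so that these genes lie close to the limit of detection, and 3 of the 59 and none of the 26 passed the low-count filter.

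Because the preterm arm holds 2 lambs, each call was repeated 9 times with 1 lamb left out, the late preterm lambs included because they share in the estimate of the spread. In all, 355 of the 1980 genes (17.9%) kept their call and sign every time, 228 that rose and 127 that fell. They were larger changes than the called genes as a whole, with median log2 fold changes of 1.08 and -0.94. Of the 228 risers, 106 were 2- to 4-fold and 24 over 4-fold. Of the 127 fallers, 49 were 2- to 4-fold and 9 over 4-fold. The highest class of expression level held 182 of the 355 genes and the lowest held 2. The total number called was 1388 to 1992 without a supported lamb, 1182 without lamb H and 607 without lamb I, and 966 and 540 of the last 2 lists were among the 1980. When depth was modelled, 119 of the 228 and 22 of the 127 kept their call. Within the libraries of low depth, lamb A alone stands against lambs H and I, and the median log2 fold changes of the 1044 and 936 genes were 0.70 and -0.74 in that fit. These genes were chosen with lambs A, H and I among the libraries, which favours such values. With sex as a covariate, 890 of the 1044 and 760 of the 936 were still called.

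The 4 genes named here were taken by rule, as the largest changes in each direction among genes that kept their call with each lamb left out and when depth was modelled. Among all called genes the largest log2 fold changes were 6.16 for a riser and, in size, 4.69 for a faller. The largest riser under the rule was ENSOARG00000009539. Its level was 17.5, 27.2, 10.2, 23.8 and 20.2 CPM in the supported lambs A to E, and 1.66 and 0.569 CPM in the preterm lambs H and I. Every supported lamb thus lay far above both preterm lambs, and lamb C was the lowest of its arm. This was a 17.3-fold rise, 4.11 ± 0.52 on the log2 scale (SE; edgeR adjusted p = 0.00131). The preterm values rest on 20 and 6 counts, and leaving out 1 lamb at a time moved the log2 fold change between 3.57 (without I) and 5.10 (without H). The late preterm lambs F and G, at 11.8 and 19.8 CPM, lay within the range of the supported lambs.

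ENSOARG00000005007 was at 60.9, 53.9, 29.6, 36.9 and 40.9 CPM in supported lambs A to E. It was at 2.41 and 5.03 CPM in preterm lambs H and I, from 29 and 53 counts. The arms did not overlap, and the 2 highest values were in lambs A and B. The rise was 12.1-fold, or 3.59 ± 0.41 on the log2 scale (SE; edgeR adjusted p = 0.000812). Modelling depth gave 4.05 (edgeR adjusted p = 0.00813). Late preterm lambs F and G were at 27.2 and 47.0 CPM, the former just under the lowest supported lamb.

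Of the genes that fell, ENSOARG00000013161 had the largest change under the rule. Preterm lambs H and I were at 23.9 and 25.3 CPM, close to each other. Supported lambs A to E were at 3.04, 3.65, 2.21, 3.03 and 4.38 CPM, all well below. The log2 fold change was -2.90 ± 0.23 (SE, edgeR adjusted p = 0.000167), and the gene ranked 5 by p-value among all tested genes. This was also the steadiest of the 4 when lambs were left out, with log2 fold changes of -3.04 to -2.79. Late preterm lambs F and G were at 4.36 and 5.61 CPM, at and just above the top of the supported range.

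ENSOARG00000000950 had 112 and 77.0 CPM in preterm lambs H and I. Supported lambs A to E had 14.0, 18.9, 16.6, 18.7 and 23.6 CPM. The supported lambs lay in a narrow band far below both preterm lambs, with lamb A the lowest. The log2 fold change was -2.36 ± 0.19 (SE, edgeR adjusted p = 0.000178), with a range of -2.61 to -2.06 over the lambs left out. Late preterm lambs F and G were at 24.5 and 19.4 CPM.

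**Figure D4:**
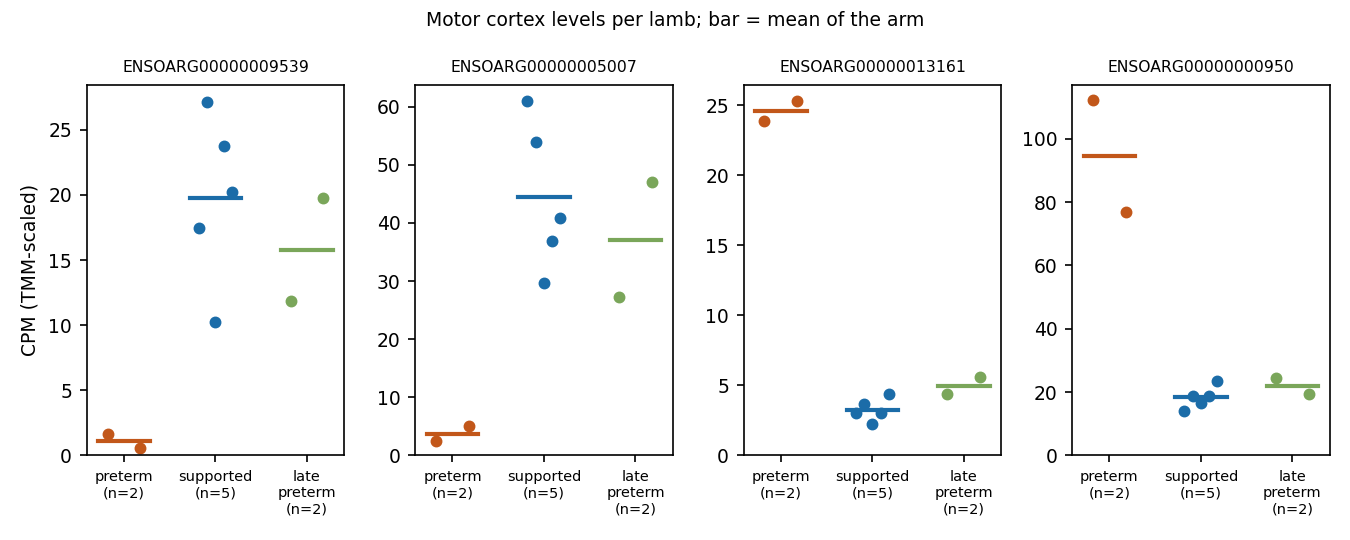
Level in CPM, TMM-scaled (y axis, from 0), of the 4 genes described by name in each motor cortex library, by arm (x axis); points are lambs and bars are means. For each gene the 5 supported and 2 preterm lambs do not overlap, and the 2 late preterm lambs lie near the supported ones.

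The 4 genes were also compared between late preterm and preterm lambs, a comparison that shares lambs H and I with the one above and called 418 genes (2.58%). The log2 fold changes there were 3.78 ± 0.55 for ENSOARG00000009539, 3.33 ± 0.44 for ENSOARG00000005007, -2.30 ± 0.30 for ENSOARG00000013161 and -2.11 ± 0.25 for ENSOARG00000000950 (SE; edgeR adjusted p = 0.0119, 0.00895, 0.00799 and 0.0056). Between supported and late preterm lambs the differences were 0.33 ± 0.36, 0.26 ± 0.31, -0.60 ± 0.25 and -0.25 ± 0.20 in the same order. Over the 1044 risers, the median log2 difference from the preterm mean was 0.45 in lamb F and 0.55 in lamb G, against 0.68 to 0.81 in the supported lambs. Over the 936 fallers it was -0.48 and -0.58, against -0.64 to -0.79. The genes were chosen for their difference in the supported lambs, so that the larger size there is partly a matter of the choice, and all these values are set against the same preterm lambs.

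Whether single lambs carried the change was read from genes chosen without them. For each supported lamb, genes were called in the fit that left it out, and its own difference from the preterm mean was then taken. In the genes called higher, the median log2 difference was 0.76 in lamb A, 0.65 in lamb B, 0.67 in lamb C, 0.91 in lamb D and 0.79 in lamb E. In the genes called lower it was -0.76, -0.58, -0.73, -0.85 and -0.71. Each supported lamb therefore differed in the direction found without it, in both sets. The other 4 supported lambs, which had helped to choose the genes, were at other values over the same risers. Lamb A lay within their range of 0.75 to 0.90. Lambs B, C and E lay below the ranges of 0.69 to 0.81, 0.72 to 0.84 and 0.80 to 0.92, and lamb D lay above the range of 0.79 to 0.82. In the fallers lambs A, C and E lay within the range of the others, lamb B changed less (-0.80 to -0.69 in the others) and lamb D more (-0.83 to -0.72). Over all tested genes, the medians of the 5 lambs were between -0.01 and 0.00. The preterm lambs are shared by these 5 readings and also helped to choose the genes, so that a difference in the same direction does not stand apart from how lambs H and I themselves deviate.

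The preterm lambs were read in the same way, against the mean of the supported lambs. In the 640 risers called without lamb H, the median log2 difference was -0.59 in lamb H and -0.92 in lamb I, which had helped to choose them. In 540 fallers it was 0.57 and 0.93. In the 304 risers called without lamb I, lambs I and H were at -1.03 and -1.04, and in 300 fallers at 0.63 and 0.98. Each preterm lamb thus differed from the supported lambs in the direction found with the other one. The difference was smaller than in the lamb that had helped to choose the genes, except for the risers called without lamb I, where both were close to -1.03. The supported lambs helped to choose these genes and also gave the mean. The shared direction therefore does not stand apart from how the supported lambs themselves deviate, nor from the low depth of both preterm lambs.

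**Figure D5:**
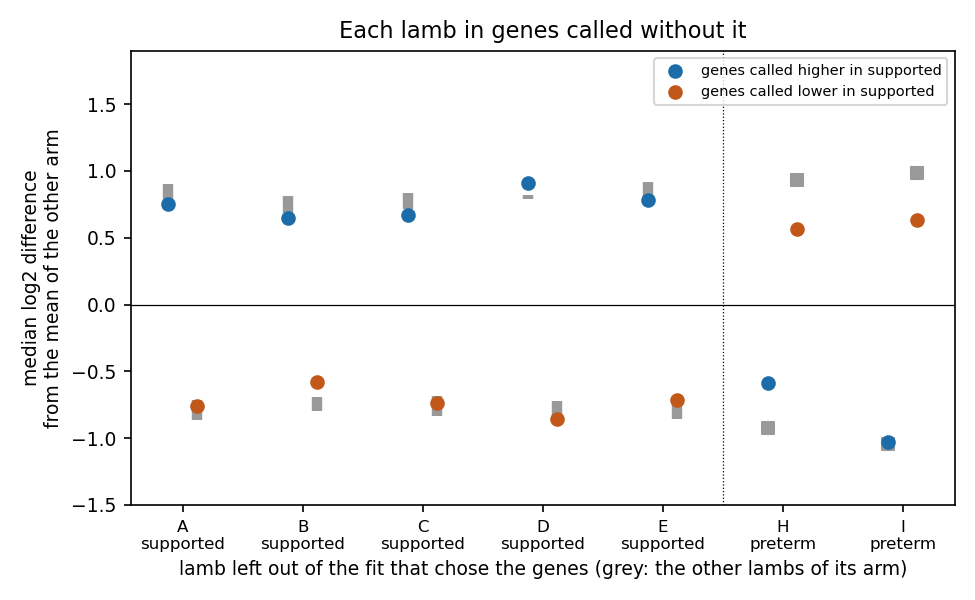
Median log2 difference of each lamb from the mean of the other arm (y axis) over genes called in the fit that left this lamb out (x axis, lambs), for genes called higher (blue) and lower (orange) in the supported lambs. Grey bars give the range of the other supported lambs over the same genes and grey squares the other preterm lamb; every supported lamb lies at 0.65 to 0.91 in the risers and -0.85 to -0.58 in the fallers.

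The change was then set beside that of other regions of the same lambs, which were separate libraries. Of the 1044 motor cortex risers, 1039 were measured in the hippocampus, with a median log2 fold change of 0.41 (median SE 0.23), and 1040 in the basal ganglia, with 0.39 (median SE 0.29). Of the 936 fallers, 933 were measured in each, with medians of -0.51 (median SE 0.22) and -0.44 (median SE 0.26). The medians over all genes tested in those regions were 0.03 and 0.04. In the cerebellum the medians were 0.72 and -0.48, and 0.61 and -0.41 without the cerebellum library of lamb H, which matched its own region at r = 0.21 against 0.49 or more in the other 8 lambs. The genes were chosen in the motor cortex, which favours the size there. The hippocampus and basal ganglia libraries are also less sure of their region, since 4 of 9 in each matched their own region best, and the mismatch was not even across the arms. In the preterm arm, the 2 hippocampus libraries were closest to the motor cortex profile, lamb H at r = 0.48 against 0.22 for its own region and lamb I at 0.42 against 0.28. So did the basal ganglia library of lamb I, at 0.49 against -0.14, and the hippocampus library of late preterm lamb G. No supported library of these regions matched the motor cortex best. The part of this in the values for these regions was not tested, and the hippocampus allows no comparison without these libraries, since they are its whole preterm arm.

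The difference between regions was tested directly, as the interaction of arm and region over the 27 libraries of motor cortex, hippocampus and basal ganglia with the lamb as a block. No gene of 17150 passed against the hippocampus (0%) or the basal ganglia (0%) in edgeR, with smallest adjusted p-values of 0.325 and 0.668. Before adjustment, p lay under 0.05 for 2045 genes (11.9%) against the hippocampus and for 1247 (7.27%) against the basal ganglia. If no gene differed, the expected share would be 0.05. The absence of calls therefore does not show that the regions changed alike. The number at an unadjusted p under 0.05 was 749 and 408 without lamb I. Against the basal ganglia it was 2482 without lamb H and 1928 without lamb A, with smallest adjusted p-values of 0.0594 and 0.415. Among the 1044 risers the motor cortex change exceeded that of the hippocampus by a median of 0.32 and that of the basal ganglia by 0.37 on the log2 scale. Among the 936 fallers the medians were -0.15 and -0.24. Both sets were chosen on these motor cortex libraries, which favours a larger change there, so these medians are a description. The part of the region mismatch given above in them was not tested.

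None of the 4 named genes passed this test either, and each is given for every other region. They were chosen for large changes in the motor cortex, which favours the size there. ENSOARG00000009539 was at 15.5 to 24.6 CPM in the supported hippocampus and at 13.1 and 9.77 CPM in lambs H and I, a difference of 0.66 ± 0.58 on the log2 scale (SE; edgeR adjusted p = 0.503). In the basal ganglia supported lambs A to E were at 37.6, 0.280, 23.7, 0.220 and 6.52 CPM, and lambs H and I at 23.8 and 8.91 CPM. Supported lambs B and D were thus near 0 and the arms overlapped widely, with a difference of -0.27 ± 1.52. The cerebellum gave -0.50 ± 0.50, and -0.65 ± 0.63 without lamb H. The motor cortex change exceeded that of the hippocampus by 3.69 and that of the basal ganglia by 5.02 on the log2 scale (edgeR interaction, adjusted p = 0.453 and 0.668).

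ENSOARG00000005007 was at 3.57 to 11.4 CPM in the supported and 2.48 and 7.32 CPM in the preterm hippocampus, where the arms overlapped (0.59 ± 0.58, SE). In the basal ganglia it was at 5.44 to 49.8 CPM and at 6.60 and 10.1 CPM, again with overlap (1.44 ± 0.79). In the cerebellum it was under 1 CPM in most libraries, and the difference was -0.64 ± 1.21 with lamb H and 1.21 ± 1.80 without it. Its interactions were 2.96 against the hippocampus and 2.48 against the basal ganglia (edgeR adjusted p = 0.325 and 0.668).

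ENSOARG00000013161 had lower values in the supported lambs in every region. The log2 difference was -1.80 ± 0.54 in the hippocampus (SE; edgeR adjusted p = 0.0976) and -2.28 ± 0.39 in the basal ganglia (edgeR adjusted p = 0.185). In the basal ganglia its level was 1.73 to 4.51 CPM in the supported lambs and 8.79 and 20.1 CPM in lambs H and I, without overlap. In the cerebellum it was at 2.54 to 4.67 CPM and at 12.5 and 9.87 CPM, also without overlap. There it fell by 1.69 ± 0.31 (edgeR adjusted p = 0.029), but without the library of lamb H the value was -1.52 ± 0.35 (edgeR adjusted p = 0.0533).

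ENSOARG00000000950 was at 16.3 to 34.9 CPM in the supported hippocampus and at 52.2 and 32.5 CPM in lambs H and I (-1.01 ± 0.38, SE; edgeR adjusted p = 0.153). In the basal ganglia it was at 16.5 to 166 CPM and at 72.5 and 28.7 CPM (0.40 ± 0.85; edgeR adjusted p = 0.873). The arms overlapped in both regions. In the basal ganglia the 4 libraries that matched this region best were those of supported lambs B, D and E and preterm lamb H. They were at 69.3, 166, 64.2 and 72.5 CPM, while lambs A, C, F, G and I were at 16.5 to 28.7 CPM. The part of the region match in this difference was not tested. In the cerebellum the difference was -0.57 ± 0.36, and -0.21 ± 0.43 without lamb H.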

How the data were processed

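The deposited table holds raw whole-number read counts per gene. Per the labels' protocols and the submitters' processing notes, mRNA was enriched from flash-frozen tissue and reads were trimmed with fastp and counted with STAR, without regard to strand, on the Ensembl release 107 sheep annotation; versions of the tools are not given in those sources. Overlapping and antisense genes are thus not separated, and near-identical genes may not be either. Columns were matched to samples by name. Library totals were 10150099 to 18153142 in the motor cortex, and no 2 libraries of an arm were copies (chi-square per degree of freedom 6.94 or more). The lambs are separate animals.

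The test was edgeR's (version 4.0.16, R 4.3.3): filterByExpr, TMM, arm as the factor over 9 motor cortex libraries, quasi-likelihood F-test, Benjamini-Hochberg adjustment, threshold 0.05. The SE is the log2 fold change divided by the square root of F, and log2 CPM used a prior count of 2. Scripts were tested on simulated counts. DESeq2 1.42.0, other filters, scalings, covariates and left-out lambs were alternatives. No gene identifier matched the reference table (ARS-UI_Ramb_v3.0), so 23 gene lists were not used. Named genes were the 2 largest changes per direction among called genes with a mean of at least 1 log2 CPM, no overlap of the arms and calls kept without each lamb and when depth was modelled. Members, lists and rules were chosen with earlier results of these data known. Sex, depth and arm are not balanced.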

Additional observations from a re-analysis of the deposited data

How the results depend on the processing

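For supported against preterm lambs the number of called genes was 1854 to 2097 with RLE size factors, with either other filter, with sex as a covariate and with 7 libraries in the fit, and 2662 in DESeq2 (1468 higher, 1194 lower). It was 171 when depth was modelled and 607 to 2060 with 1 lamb left out. Changes beyond 1.5-fold numbered 22 when depth was modelled and 46 to 185 with 1 lamb left out. Genes without overlap of the arms numbered 5294 to 9411 with 1 lamb left out, where fewer lambs make an overlap rarer by construction. The number of genes bounded under 2-fold stayed within 1.5 times of 10772 under every alternative run. The 4 named genes were chosen for keeping their call without each lamb and when depth was modelled, so those settings say nothing more of them; they also kept sign and call with RLE, either other filter, 7 libraries, sex as a covariate and DESeq2. No gene passed the test of the difference between regions under any alternative run. The arms hold different lambs, so the lamb can serve as a block only between regions. With no replicate block 0 genes passed. At an unadjusted p under 0.05 there were then 1242 genes (7.24%) against the hippocampus and 751 (4.38%) against the basal ganglia. With 2 preterm lambs, both of low depth, depth and arm can be separated only through lamb A.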
